A study of Mus musculus with 44 samples.

Results

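The cochlear nucleus of young mice was compared with the nucleus of the other side 24 h after removal of 1 cochlea at postnatal day 7 (P7). The comparison holds 6 of the 44 arrays of the series, chosen by age and time in the sample titles: 3 arrays of the deafferented nucleus, on the operated side, and 3 of the contralateral nucleus, which served as the control. All animals had lost the cochlea of 1 side, so the control nucleus also came from operated animals, and no group of unoperated animals was analysed here. Each array held RNA from its own pool of tissue. Neither the number of animals per pool nor the strain is given in the sources used here. For comparison, 6 arrays 12 h and 6 arrays 48 h after surgery at P7, and 6 arrays 24 h after surgery at P21 were used, each set with 3 deafferented and 3 control arrays, as were 4 arrays 6 h after surgery at P7.

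The nucleus, a group of neurons in the brainstem, is the first relay of the central auditory pathway on which auditory nerve axons end. Removal of the cochlea takes away this input. In young mammals many neurons of the nucleus die within days of that loss, whereas older animals pass through the same surgery with little neuron loss. Programmed death of neurons is commonly carried by proteins of the Bcl2 family at the mitochondrion, by release of cytochrome c and by caspases, while cut axons draw a response of astrocytes and microglia.

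Total RNA was hybridised to Affymetrix arrays with 22626 probe sets, and the deposited values are on the log2 scale. Of these probe sets, 15323 exceeded a value of 5 in at least 2 of the 44 arrays and were tested. They represented 8886 genes, each by its brightest probe set. All values below are log2 levels or log2 differences, deafferented minus control, so a difference of 1 is a doubling. A change was called at a Benjamini-Hochberg adjusted p under 0.05 in a limma fit over all 44 arrays.

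The 6 arrays differed in composition before any comparison was made. Medians lay between 6.04 and 6.16. Control replicate 1 had the lowest mean correlation with the other P7 arrays of all P7 arrays, at 0.948. In that array a list of 16 myelin and oligodendrocyte genes lay 0.83 below the mean of the 6 arrays, and a list of 23 genes of meninges and choroid plexus lay 0.73 above it. In deafferented replicate 2 the meningeal and choroid plexus list lay 0.50 below that mean, and a list of 32 reactive astrocyte genes lay 0.50 above it. Of 23 listed marker genes of cochlear nucleus neurons, 17 had a probe set and 15 were tested. Among these 15, 13 exceeded 5 in at least 1 of the 6 arrays. The others were Slc6a5, at 2.7 to 3.9, and Glra1, at 4.0 to 4.6. Tested genes had been kept for exceeding 5 in arrays of the series, so this count cannot test the identity of the tissue. Kcna1, a potassium channel of rapidly firing auditory neurons, lay between 7.83 and 9.40, and Calb2, the calcium buffer calretinin, lay between 9.28 and 9.98. Ttr, the transthyretin of choroid plexus, lay between 14.65 and 14.97 in these arrays, so plexus RNA was present on both sides.

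**Figure D1:**
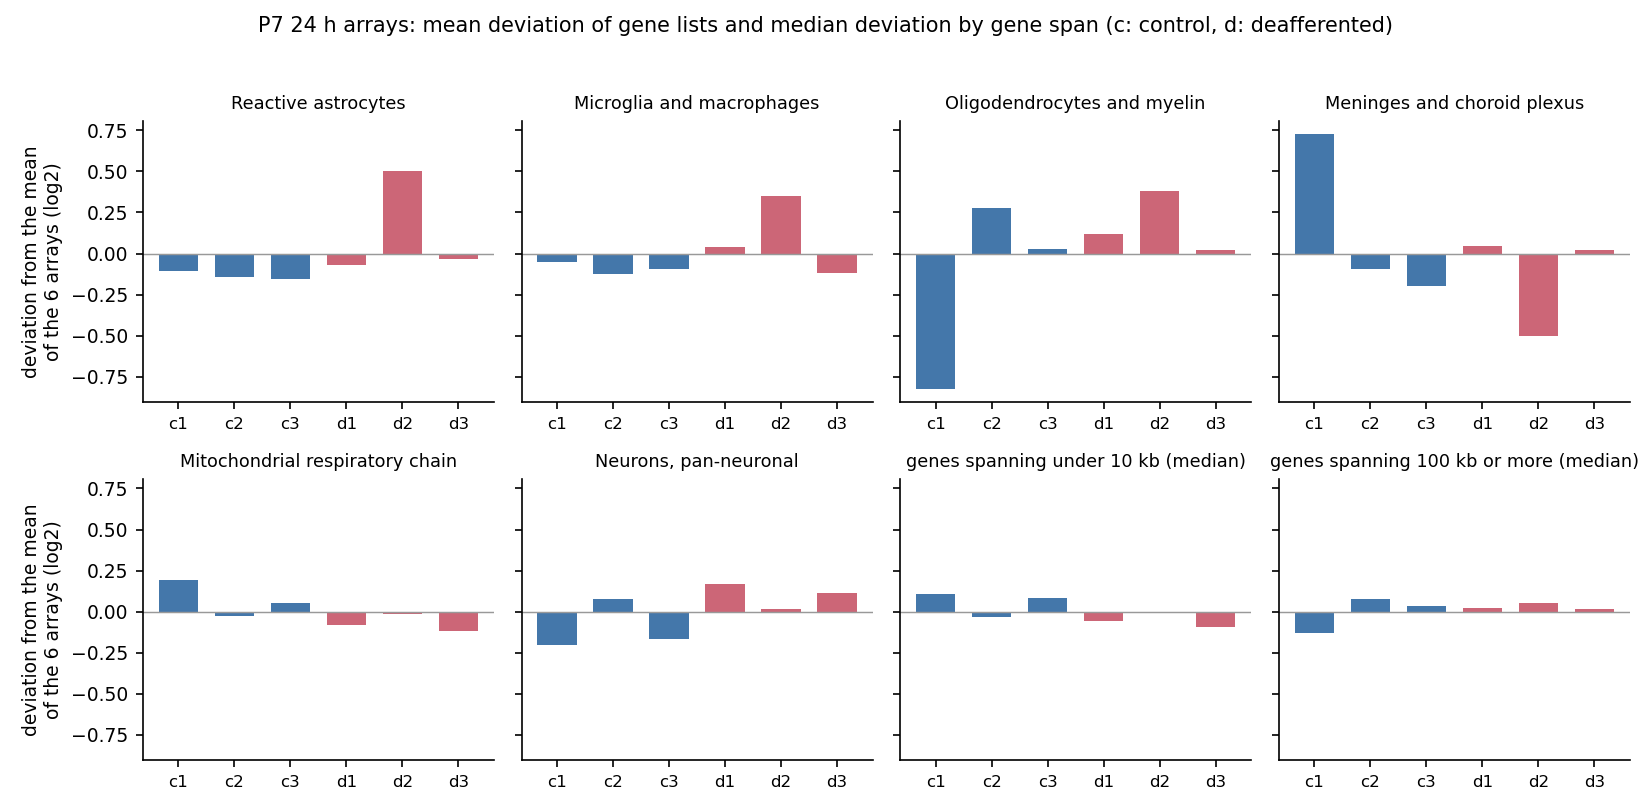
Deviation of each P7 24 h array (c1 to c3 control, d1 to d3 deafferented) from the mean of the 6 arrays, on the log2 scale: the mean over the genes of 6 lists, and the median over probe sets of genes with a short or a long genomic span. Control 1 was low for myelin genes (-0.83) and high for meninges and choroid plexus (0.73), and deafferented 2 was high for reactive astrocyte genes (0.50).

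Across the whole array 1 probe set differed between the sides, for Cd44, a cell surface receptor of hyaluronan found on reactive astrocytes and immune cells. That is 0.00653% of the 15323 probe sets tested. At an unadjusted p under 0.05 there were 1585 probe sets, 811 of them higher and 774 lower on the deafferented side. At P21 the same comparison at 24 h called 124 probe sets (0.809%), 97 higher and 27 lower. The count at P7 rested on single arrays: limma called 278 probe sets without control replicate 2, 50 without control replicate 1, 8 without deafferented replicate 2 and 0 without control replicate 3, where 1133 had an unadjusted p under 0.05. With the replicate number as a block, which the main fit did not use, limma called 165 probe sets at P7, 115 higher and 50 lower. Where nothing says that pools came from separate litters or surgeries, the p-values measure only the spread between these pools.

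The called probe set of Cd44 read 3.58, 3.18 and 2.60 in the 3 control arrays and 4.91, 5.50 and 4.42 in the 3 deafferented arrays. All 3 deafferented values lay above all control values, though only 1 of the 6 exceeded 5. The difference was 1.82 ± 0.28 (standard error, SE), with an adjusted p of 0.00299 in limma, and 0.153 without control replicate 3. No fold is given for it, since both group means were under 5, the limit used to keep probe sets. The brighter probe set that represents the gene read 5.54, 6.06 and 6.11 in the controls and 6.56, 7.74 and 6.95 after deafferentation. Its groups were apart too, and its difference of 1.18 ± 0.26 did not pass (adjusted p = 0.0913). At P21 24 h the differences of the same probe sets were 3.33 and 2.69, both called. The test of the difference between the ages did not pass for either.

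Because so little passed, the genes with the smallest p are given as values that did not pass in the limma fit. Among the 8886 genes, 195 (2.19%) were higher and 539 (6.07%) were lower at an unadjusted p under 0.05. All 3 deafferented arrays lay above all 3 controls for 211 genes (2.37%) and below them for 658 (7.4%). Among the 10 higher genes with the smallest p, 4 had been called higher at P21, where 68 of the 8886 genes were: Hmox1, Cd44, S1pr3 and Lpl. Hmox1 codes for heme oxygenase 1, which degrades heme and is induced by oxidative stress and by red cell breakdown. It read 6.06, 6.38 and 6.72 in the controls and 7.43, 8.47 and 7.36 after deafferentation, without overlap. The difference was 1.37 ± 0.28, or 2.58-fold, with an adjusted p of 0.0827. The median difference of 3 red blood cell markers, measured beside it, was -0.03, in a range of -0.42 to 0.02. The part of blood in the Hmox1 values was not tested.

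S1pr3, a receptor of sphingosine 1-phosphate on vessels and reactive astrocytes, read 3.27, 3.64 and 3.21 in the controls and 4.39, 4.50 and 4.13 after deafferentation. The 3 deafferented pools lay close together, all above the controls, at levels under 5. The difference was 0.97 ± 0.24 (adjusted p = 0.117). Lpl, the lipoprotein lipase that microglia switch on when they take up lipid, read 8.14, 7.58 and 8.02 against 8.49, 9.33 and 8.37. Its difference was 0.82 ± 0.21 (adjusted p = 0.135), and its second probe set differed by 1.05, with an adjusted p of 0.0913. In Hmox1, Lpl and both Cd44 probe sets the highest of the 6 values was that of deafferented replicate 2, the array with the highest reactive astrocyte genes.

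The other 6 higher genes followed another order of arrays. Eml6, a microtubule-associated protein, read 5.94, 6.47 and 5.91 against 7.11, 6.92 and 7.17 and differed by 0.96 ± 0.18 (adjusted p = 0.0546). Lats1, a kinase of the Hippo pathway, differed by 1.26, Atrn, attractin, by 1.93, Epha4, an ephrin receptor of axon guidance, by 0.82, Pcdh10, a protocadherin, by 0.85 and Kcna6, a potassium channel subunit, by 1.54. In all of Lats1, Atrn, Epha4, Pcdh10 and Kcna6 the lowest value was that of control replicate 3 and the lowest of the deafferented values was that of replicate 2. Atrn, for example, read 3.12, 4.29 and 2.43 in the controls and 5.66, 4.64 and 5.33 after deafferentation. None of these 6 genes was called at P21 24 h, where their differences ranged from -0.29 to 0.18.

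The 10 lower genes with the smallest p differed by -0.45 to -0.87, and the deafferented arrays lay below all controls in each. Chchd6, Dnajc15, Mrps24, Pam16 and Ndufa5 code for proteins of the mitochondrion: of the inner membrane contact sites, of protein import, of the mitochondrial ribosome, of protein import again and of respiratory complex I. Ndufa5 read 11.21, 11.12 and 11.46 in the controls and 10.85, 10.60 and 10.87 after deafferentation. Its groups did not overlap, and its difference was -0.49 ± 0.13 (adjusted p = 0.145). Chchd6 differed by -0.76, Dnajc15 by -0.65, Mrps24 by -0.62 and Pam16 by -0.56, with an adjusted p of 0.0913 each. Copg2, a coat protein of Golgi vesicles, read 8.28, 8.07 and 8.18 against 7.61, 7.21 and 7.28, again apart, a difference of -0.81. Rassf7 differed by -0.87 (adjusted p = 0.0827), Ift80, a protein of cilia, by -0.74, Srp9, of the signal recognition particle, by -0.45 and Mea1 by -0.45. A second, dimmer probe set of Ift80 differed by 0.04.

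The levels of these genes are drawn array by array, at both ages, for 10 examples.

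**Figure D2:**
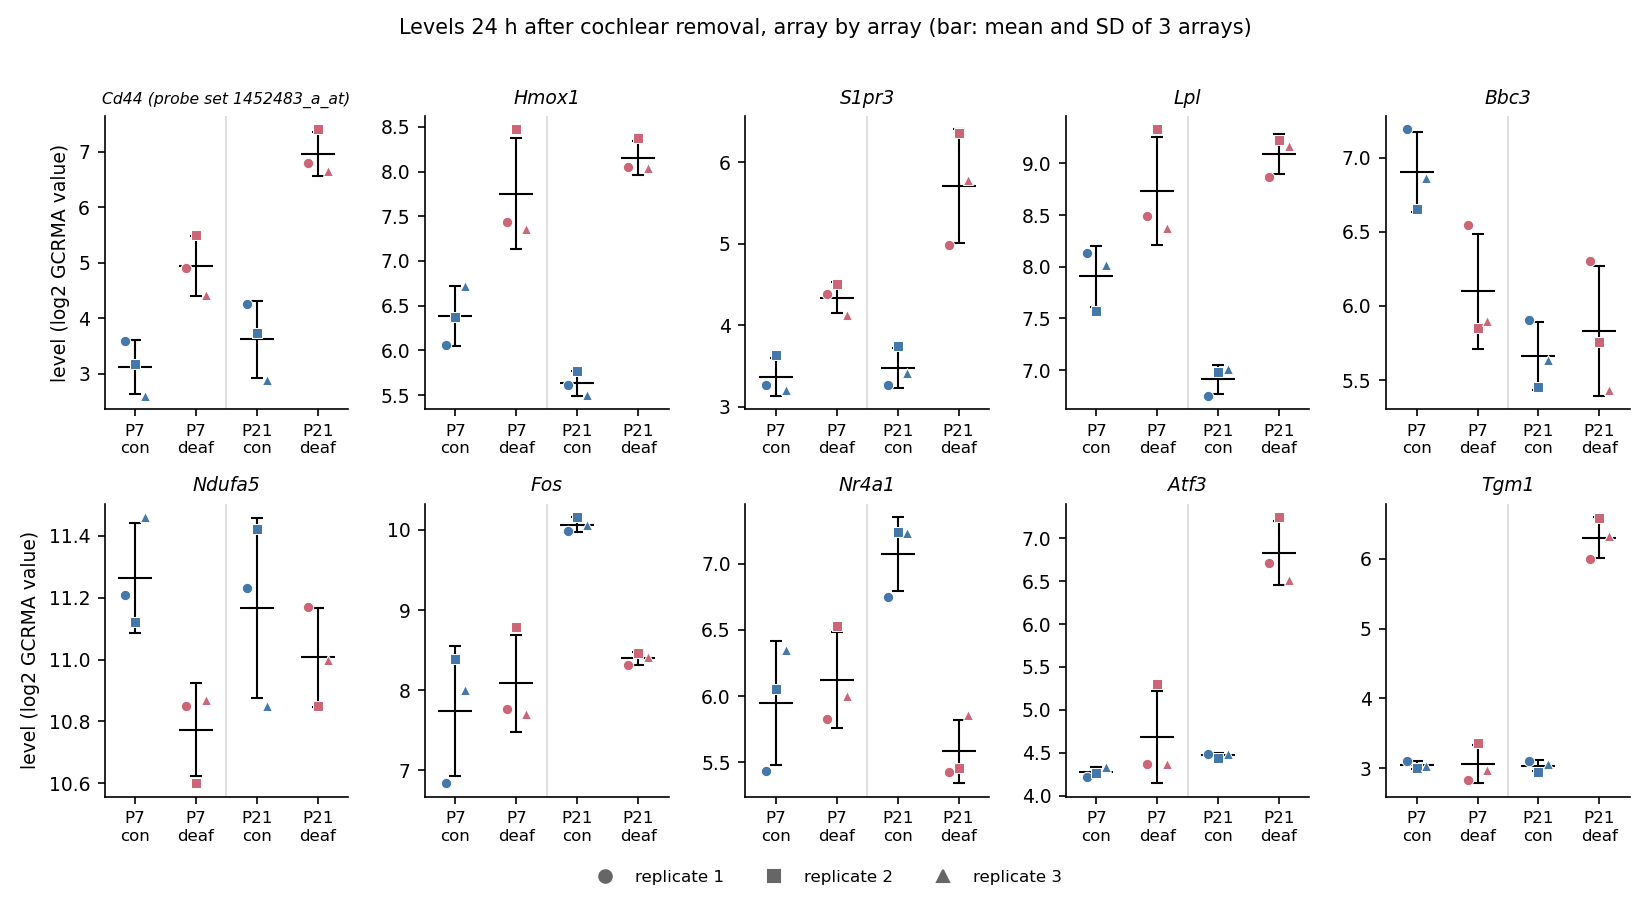
Log2 levels of 10 probe sets in the 12 arrays taken 24 h after surgery: P7 and P21, control (con, blue) and deafferented (deaf, red) side. Each point is an array, its shape the replicate number, and the bar gives the mean and SD of 3 arrays. The P7 groups are apart for Cd44, Hmox1, S1pr3, Lpl, Bbc3, Ndufa5 and Atf3, and the Fos mean is 10.07 in P21 controls and 8.39 after deafferentation at P21, while its P7 values overlap.

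Genes of programmed cell death lay close to the background of all genes at P7 24 h. Across 6 lists, 61 such genes were tested, of which limma called 0; 1 was higher and 4 were lower at an unadjusted p under 0.05, and 19 had a difference above 0. Over all 8886 genes the probe sets that represent them gave 0 calls, 2.19% were higher and 6.07% lower, and 3338 had a difference above 0. The median difference of the death genes was -0.08, beside -0.06 over all genes. In this bulk tissue fewer cells of a type and less RNA per cell cannot be told apart, and RNA levels say nothing of the cleavage by which caspases act.

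The gene nearest to a call was Bbc3, which codes for Puma, a BH3-only protein that p53 switches on and that triggers death by binding the survival proteins. Bbc3 read 7.19, 6.65 and 6.87 in the controls and 6.54, 5.85 and 5.90 after deafferentation. All deafferented values were lower, with a difference of -0.81 ± 0.22 (adjusted p = 0.178). The difference was -0.16 at 6 h, 0.61 at 12 h and 0.02 at 48 h, and 0.17 at P21 24 h. The test of 24 h against 12 h did not pass for it. The other BH3-only genes and effectors stayed nearer to 0. Bad, inactive while growth factors keep it phosphorylated, differed by -0.43 and Bnip3, of mitochondrial turnover, by -0.27. Bcl2l11, which codes for Bim, differed by -0.12, and a dimmer probe set of it by 0.39. Bak1, a pore-forming effector, differed by 0.24, with its groups apart.

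The 4 survival members tested, Bcl2, Bcl2l1, Bcl2l2 and Mcl1, all differed by less than 0 (median -0.18), and 0 of 4 had an unadjusted p under 0.05. Mcl1 read 9.72, 9.74 and 10.01 against 9.43, 9.45 and 9.56, apart, a difference of -0.34, while its 5 dimmer probe sets differed by -0.27 to 0.67. Bcl2 read 6.11, 6.38 and 6.11 against 5.73, 6.18 and 6.09, with overlap. Of the 14 genes of caspases and the apoptosome, 0 had an unadjusted p under 0.05 in either direction, and their median was -0.05. Cycs, cytochrome c, was bright on all arrays, at 12.84, 12.32 and 12.27 against 12.36, 12.41 and 12.34. Apaf1, the scaffold that cytochrome c assembles into the apoptosome, differed by -0.01 and Casp9, the initiator caspase it activates, by 0.05. Casp8, the initiator below death receptors, read 5.34, 5.86 and 5.4 against 5.89, 6.24 and 5.87, a difference of 0.47 with an adjusted p of 0.667. Bax and Trp53 were not analysed here.

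Among 18 genes of p53 and its targets the median was -0.13; 0 were higher and 2, Bbc3 and Perp, lower at an unadjusted p under 0.05. Perp read 7.57, 6.29 and 6.35 against 5.95, 5.6 and 6.21, the first control standing high as it did for meningeal genes. Cdkn1a, the p21 cell cycle inhibitor and the most widely used readout of p53, read 8.76, 8.42 and 8.67 against 8.66, 8.68 and 8.56. Its difference was 0.02 ± 0.18. Gadd45a, induced by DNA damage and by cut axons, read 6.52, 6.55 and 6.42 against 6.71, 6.95 and 7.11, apart by a difference of 0.43 (adjusted p = 0.514). At P21 24 h it was called at 1.59. The 9 death receptor genes had a median of -0.08. In the 11 genes of calpains and calcium-activated injury the median was 0.01, and 1, the calcineurin subunit Ppp3cb, was higher at an unadjusted p under 0.05. Its difference was 0.73, and control replicate 3 read 8.31 where the other controls read 9.47 and 9.50.

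Trophic genes were close to even between the sides. In 17 genes of neurotrophins, growth factors and their receptors the median was -0.02, and 2 were higher and 0 lower at an unadjusted p under 0.05. Ntrk2, the BDNF receptor, read 10.55, 10.33 and 10.45 against 10.38, 10.66 and 10.24. Ngfr, the p75 neurotrophin receptor, differed by -0.01, its dimmer probe set by 0.33. Igf1, a survival factor that microglia also make, read 8.70, 8.54 and 8.40 against 8.39, 8.14 and 8.20. These values were apart and lower after deafferentation by a small margin, a difference of -0.30 ± 0.19 (adjusted p = 0.621). At P21 24 h the difference of Igf1 was 0.62 and did not pass. A dimmer Igf1 probe set differed by 0.28 at P7. Bdnf was below the level needed for testing.

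Among genes that follow neuronal activity, Fos and Nr4a1 differed between the ages. Fos, an immediate early transcription factor, read 6.83, 8.38 and 8.0 in the P7 controls and 7.77, 8.78 and 7.71 on the deafferented side. The groups overlapped, with a difference of 0.35 ± 0.28. At P21 Fos read 9.98, 10.16 and 10.06 in the controls and 8.31, 8.47 and 8.41 after deafferentation. That fall of -1.67 was called at P21, and the test of the difference between the ages passed, at 2.02 (adjusted p = 0.0176). Nr4a1, another immediate early factor, differed by 0.17 at P7 and -1.49 at P21, a difference between the ages of 1.67 (adjusted p = 0.0465). The P7 controls were lower in both genes than the P21 controls: the mean was 7.74 against 10.07 for Fos and 5.95 against 7.07 for Nr4a1. Without P7 control replicate 1, and without P7 deafferented replicate 2, neither gene passed (adjusted p 0.0575 to 0.164), and without control replicate 1 the P7 differences were -0.11 for Fos and -0.08 for Nr4a1. Dusp1, a phosphatase of the same class, differed by -0.10 at P7 and was called at -1.01 at P21, and the test between the ages did not pass.

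Over the 23 immediate early and activity-regulated genes the P7 median was 0.12, and it was -0.01 without control replicate 1. At an unadjusted p under 0.05, 1 gene was higher and 2 were lower, and limma called 0 of them. Jun, which also answers to axon injury, read 8.86, 8.24 and 8.30 against 8.93, 8.89 and 8.64. Its difference was 0.35 ± 0.17 (adjusted p = 0.476), and its second probe set differed by -0.03. The 2 lower genes were Rgs2, a brake on G protein signalling, at -0.57, and Dusp6, at -0.35.

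The axon injury and growth list, 27 genes, had a median of 0.08 at P7 and 0.25 at P21, where 7 were called higher and 1 lower. Over all 8886 genes 68 were called higher and 21 lower at P21 24 h. At P7 2 were higher and 2 lower at an unadjusted p under 0.05. Atf3, a transcription factor of injured neurons, read 4.22, 4.26 and 4.34 in the controls and 4.37, 5.30 and 4.37 on the deafferented side. The groups were apart, yet only deafferented replicate 2 stood clear of the controls. The difference was 0.41 ± 0.29 (adjusted p = 0.684). At P21 Atf3 read 4.48, 4.44 and 4.49 against 6.72, 7.25 and 6.52. That change of 2.36 was called, and the ages differed by -1.95 (adjusted p = 0.0366). Gap43, the growth cone protein, differed by -0.20 at P7, where its levels of 8.44 to 9.83 lay above the P21 levels of 5.09 to 6.85. Ddit3, the Chop factor of endoplasmic reticulum stress, differed by -0.21.

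The reactive astrocyte list gave no call at P7, and its highest values came from 1 pool. Of 32 tested genes 23 had a difference above 0, as did 3338 of all 8886 genes; 5 were higher and 0 lower at an unadjusted p under 0.05, and limma called 0 of the representing probe sets. The deafferented arrays lay above all controls in 6 genes: Cd44, S1pr3, Timp1, Serpina3n, Vim and Ptx3; the share over all genes was 2.37%. The median over the list was 0.18, and 0.01 without deafferented replicate 2. At P21 24 h the median was 0.99 and 14 genes were called, all higher, beside 68 called higher of all 8886 genes.

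Timp1, an inhibitor of matrix proteases made by reactive astrocytes, read 4.39, 4.36 and 4.34 in the controls and 4.83, 7.57 and 5.30 on the deafferented side. All 3 were above the controls, and replicate 2 exceeded the next by more than 2. The difference was 1.54 ± 0.48 (adjusted p = 0.242), against 4.12 at P21. Serpina3n, a secreted protease inhibitor, read 4.61, 5.57 and 5.52 against 6.07, 7.20 and 5.73, a difference of 1.10. Gfap, the intermediate filament of astrocytes, read 10.67, 11.35 and 10.96 in the controls and 11.60 and 12.12 in deafferented replicates 1 and 2, while deafferented replicate 3 lay between the controls. Its difference was 0.58 ± 0.55. Vim, a second filament of reactive astrocytes, differed by 0.42 without overlap. Resting astrocyte genes had a median of 0.10 in 20 genes and -0.01 without control replicate 1.

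The microglial list gave no call either. Of 32 tested 24 had a difference above 0; 2, Ly86 and Lpl, were higher and 0 lower at an unadjusted p under 0.05, while limma called 0. The list median was 0.12, and 0.02 without deafferented replicate 2, against 0.54 and 8 called genes at P21. These 8 were higher, as were 68 of all 8886 genes called at P21 24 h. The summed level of these genes, as a log2 value, ranged from 12.40 to 12.51 in the controls and from 12.39 to 12.89 after deafferentation. Cd68, a lysosomal protein of phagocytes, read 5.90, 6.11 and 6.38 against 6.43, 7.47 and 6.23, a difference of 0.58 with overlap. At P21 Cd68 was called at 2.66. Aif1, which codes for Iba1, differed by -0.21 and C1qa, of the first complement component, by 0.09. The 18 genes for phagocytosis of dying cells had a median of -0.003, with Axl at 0.56 and Cd36 at 0.57 higher at an unadjusted p under 0.05.

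In 16 genes of cytokines and chemokines the median was 0.03, and 3 were higher at an unadjusted p under 0.05. Ccl6, a chemokine of macrophages, read 3.41, 3.41 and 3.36 in the controls and 4.06, 5.03 and 4.20 after deafferentation. Csf1, the growth factor on which microglia depend, read 7.07, 7.13 and 7.12 against 7.41, 7.94 and 7.54. In both the groups were apart and replicate 2 was highest; the differences were 1.04 and 0.52, with adjusted p values of 0.28 and 0.32. The other 2 probe sets of Csf1 differed by 0.73 and -0.07. The third was Clcf1, a cytokine of the interleukin 6 family, at 0.56. In 7 complement genes the median was 0.09, with C3ar1 at 0.63, and in 19 interferon response genes it was 0.05, with Stat2 at 0.74 and its dimmer probe set at 0.11. Markers of neutrophils, monocytes and lymphocytes, 6 genes, had a median of -0.08, and 3 of them were below 5 on all 6 arrays.

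Medians of markers of neighbouring tissue depended on control replicate 1. Leaving out that array turned the sign of the median in 22 of all 44 lists, 16 of them from above 0 to below, and leaving out deafferented replicate 2 did so in 13. Myelin and oligodendrocyte genes had the highest list median, 0.36 in 16 genes, 15 of them above 0, and -0.01 without control replicate 1. Schwann cell and spiral ganglion genes, which would mark the auditory nerve root, had a median of 0.29 in 9 genes and -0.03 without that array. Meninges and choroid plexus genes had a median of -0.28 in 23 genes and 0.0048 without it. Fmod, fibromodulin of connective tissue, read 7.96, 7.16 and 7.54 against 6.91, 6.21 and 6.84, apart, with a difference of -0.90 (adjusted p = 0.28), and its 4 dimmer probe sets differed by -0.18 to -0.66. Genes of endothelium and pericytes had a median of 0.04 in 25 genes and -0.19 without it. Cerebellar granule and Purkinje cell genes had -0.06 in 15 genes and -0.12 without it, and oligodendrocyte precursor genes -0.03 in 7 and -0.14 without it. The part of these markers in the other differences was not tested.

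Neuronal marker lists lay near 0 and depended on control replicate 1. Of 21 pan-neuronal genes 16 had a difference above 0, with a median of 0.11 (0.01 without control replicate 1); 4, Map2, Syt1, Nefm and Stmn2, were higher and 0 lower at an unadjusted p under 0.05. Limma called 0. Map2, a protein of dendrites, read 7.96, 7.55 and 5.17 against 8.64, 7.34 and 8.78, and Syt1, the calcium sensor of synaptic vesicles, 8.21, 8.65 and 5.58 against 9.14, 7.74 and 9.14. In both genes control replicate 3 lay far below the other arrays, and the groups overlapped. The 15 genes of cochlear nucleus neurons had a median of 0.03, and -0.18 without control replicate 1, where that of all genes was -0.10, with 0 of the 15 at an unadjusted p under 0.05. Kcna1 differed by 0.39, Kcnc1, the potassium channel Kv3.1, by 0.08 and Calb2 by -0.09.

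Genes of the respiratory chain had mostly small differences below 0. Of 43 tested, 5 had a difference above 0, and the median was -0.15 (-0.06 without control replicate 1), beside -0.06 over all genes. At an unadjusted p under 0.05, 1 was higher and 6 were lower, and limma called 0. The 6 lower genes were subunits of complex I: Ndufa1 (-0.28), Ndufa5 (-0.49), Ndufb2 (-0.32), Ndufb5 (-0.43), Ndufs3 (-0.23) and Ndufs7 (-0.42), and the higher gene was Sdha of complex II (0.23). All 3 deafferented arrays lay below all controls for 6 of the 43: Ndufa5, Ndufb5, Ndufs7, Ndufs8, Sdhc and Uqcrc2. The same held for 658 of all 8886 genes (7.4%). Most genes of this list are compact: 28 of 43 span less than 10 kb of the genome. Over all 3238 tested probe sets of genes that short the median was -0.11, with 10.2% lower and 1.57% higher at an unadjusted p under 0.05. Over the 1860 of genes spanning 100 kb or more it was 0.05, with 2.85% lower and 10.4% higher. Without control replicate 1 the medians were -0.08 for the short and -0.03 for the long genes. At P21 24 h and at 6, 12 and 48 h after surgery at P7 the medians of both classes lay between -0.06 and 0.04. The part of gene span in the list's values was not tested.

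Other housekeeping lists lay near the background. Cytosolic ribosomal proteins had a median of -0.06 in 39 genes, ribosome biogenesis and translation factors 0.05 in 24, and glycolysis and lactate transport -0.03 in 18. Genes of the unfolded protein and integrated stress response had -0.09 in 24 genes, and lysosome and autophagy genes 0.01 in 24. Heat shock and oxidative stress genes had -0.05 in 27, among which Hmox1 alone was higher at an unadjusted p under 0.05 and Nqo1 (-0.41) alone lower.

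**Figure D3:**
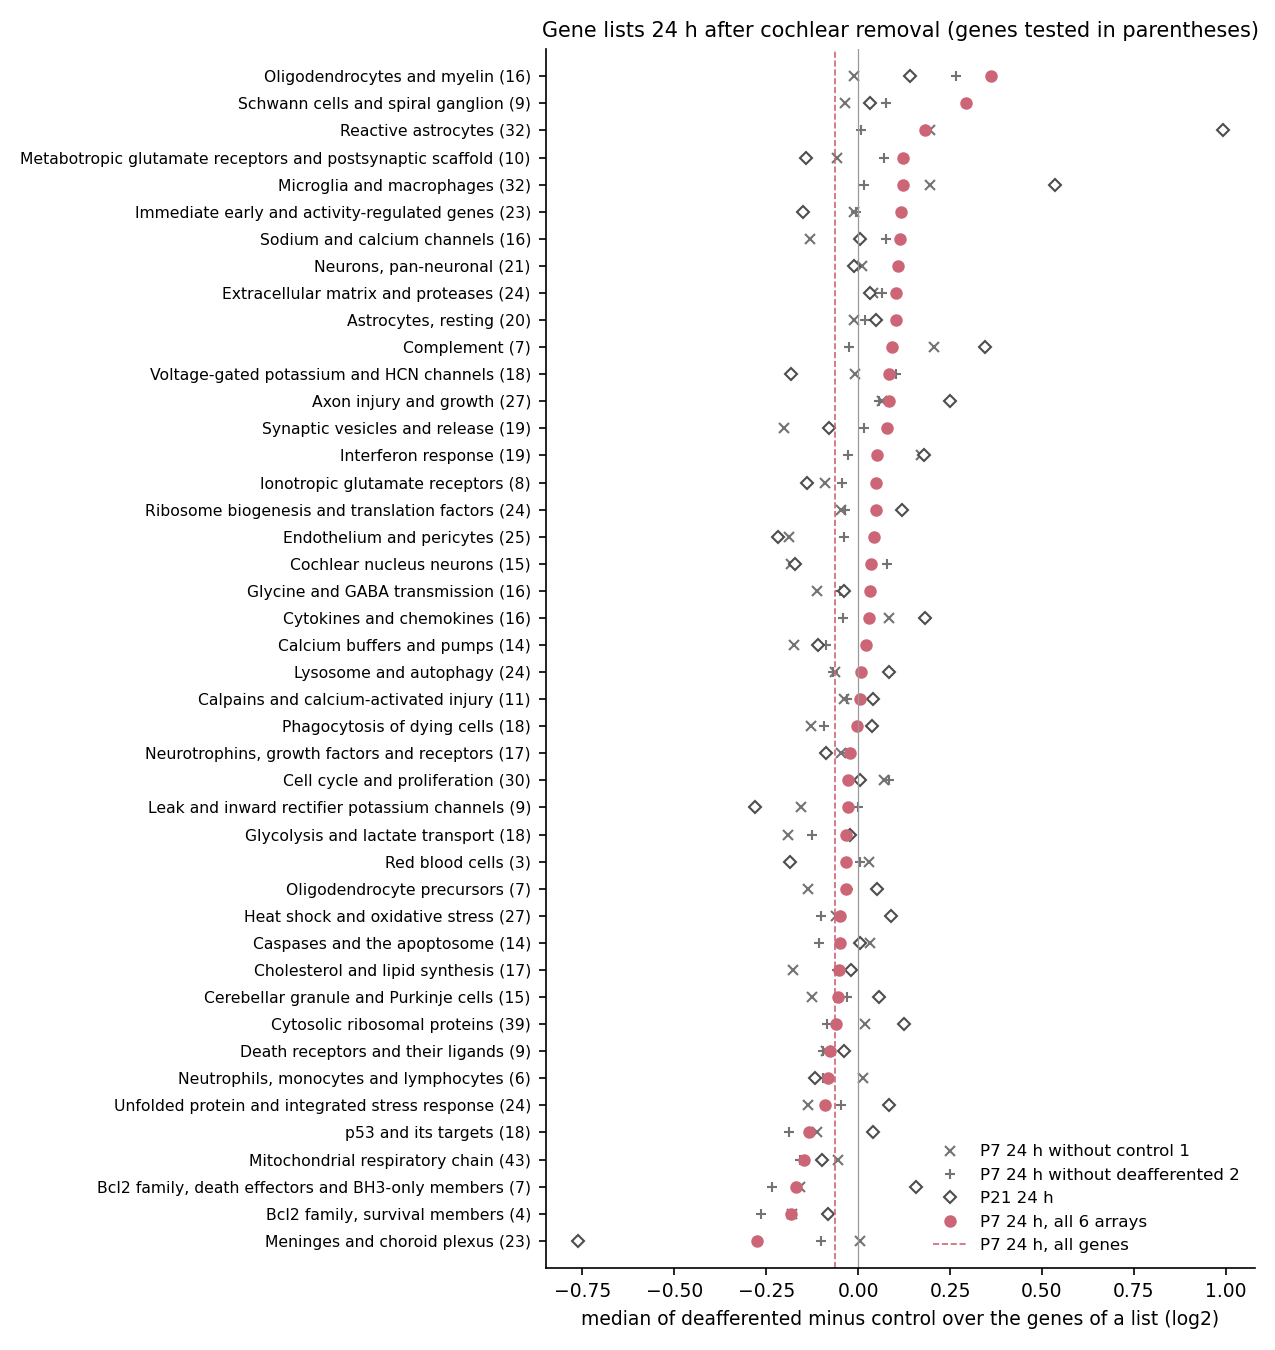
Median log2 difference, deafferented minus control, over the tested genes of 44 lists at 24 h: filled circles P7, open diamonds P21, crosses P7 without control replicate 1 and plus signs P7 without deafferented replicate 2; the dashed line is the P7 median of all genes (-0.06). Reactive astrocyte genes sit at 0.18 at P7 and 0.99 at P21, and the myelin median of 0.36 moves to -0.01 without control 1.

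The response was then followed over time at P7, in groups that share no arrays. Against 12 h, 0 of 15323 probe sets (0.0%) were called, with 815 at an unadjusted p under 0.05. Against 48 h, 0 (0.0%) were called, with 1545 at an unadjusted p under 0.05. The smallest adjusted p was 0.270 and 0.198. With the replicate number as a block the counts were 4 and 90. By the lowest correlation of same-numbered arrays, the numbers were taken to pair the 12 h and 48 h arrays but not those of 24 h. The second count also rested on a single array: 82 probe sets were called against 48 h without control replicate 2 of 24 h.

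Cd44, Hmox1, S1pr3 and Lpl were chosen for their small p at 24 h, so their course over time is a description. For the brighter Cd44 probe set the differences from the earliest to the latest time were 0.36, 0.42, 1.18 and 0.77. The called, dimmer Cd44 probe set gave -0.03, 0.44, 1.82 and -0.10, so the 2 disagreed at 48 h. For Hmox1 they were 0.58, 0.75, 1.37 and 0.60, and for Lpl 0.26, 0.24, 0.82 and 0.40. The dimmer Lpl probe set differed by 0.18 at 12 h, 1.05 at 24 h and 0.06 at 48 h. For S1pr3 the other times gave -0.19, 0.00 and 0.15. Gadd45a was level, with 0.52, 0.36, 0.43 and 0.46. Microglial genes as a list had a median of 0.12 at 24 h and 0.42 at 48 h. None of these steps passed the test between times.

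The genes that differed most from 12 h were led by Ibsp and Col2a1, genes of bone and cartilage. Ibsp differed by 1.28 at 24 h and -2.81 at 12 h and Col2a1 by 0.18 and -2.13, so their difference came mainly from the 12 h arrays. Among the genes lower at 24 h than at 12 h were Bbc3, Surf1, an assembly factor of complex IV, at -0.37 and 0.32, and Gpt, alanine aminotransferase, at -0.34 and 0.41. Against 48 h, Grik2, a kainate receptor subunit, stood at 0.63 and -0.26, and Fmod at -0.90 and 0.92.

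**Figure D4:**
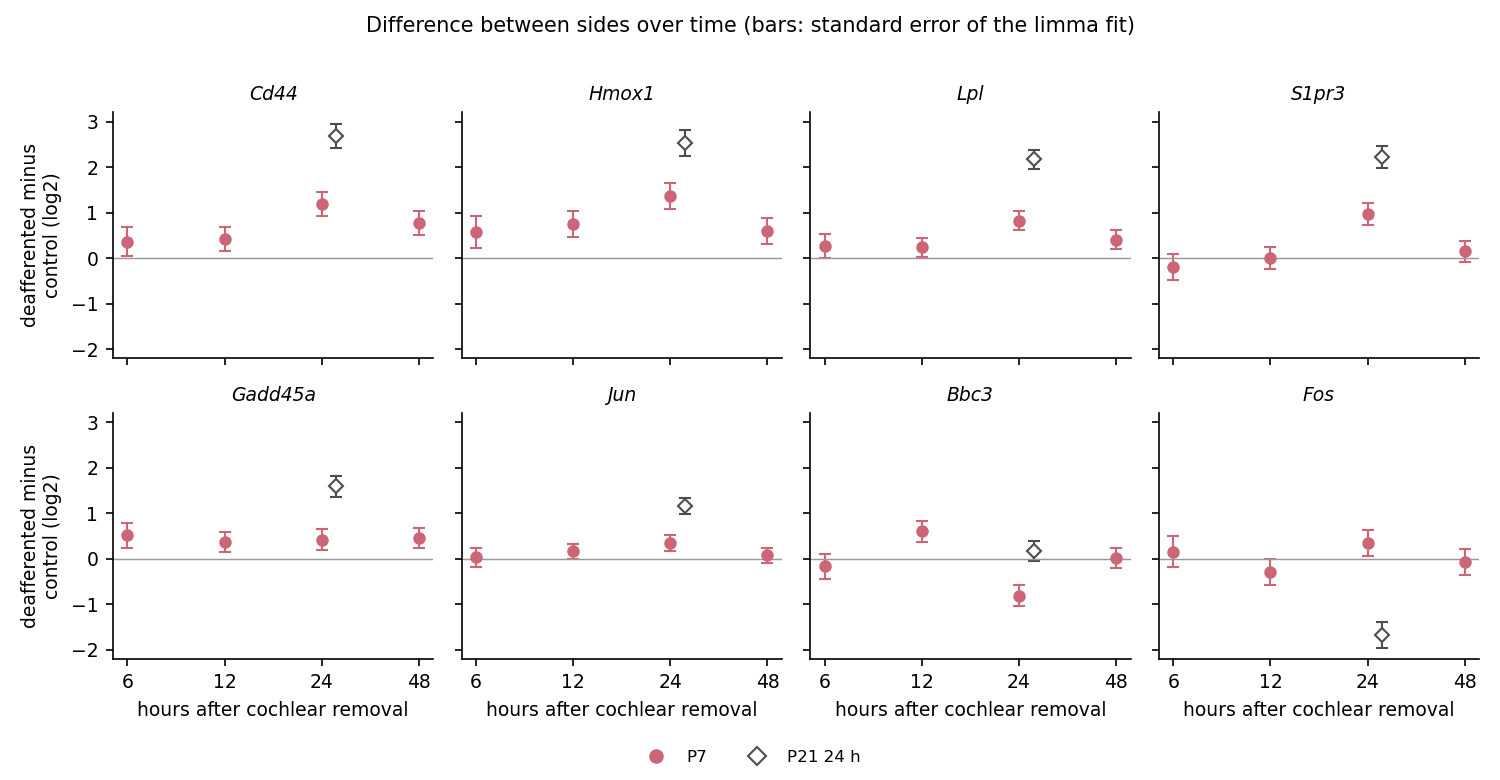
Log2 difference between the deafferented and control side for 8 genes at 6, 12, 24 and 48 h after surgery at P7 (filled circles), with the P21 24 h difference beside it (open diamonds); bars are standard errors of the limma fit, and the time axis is not to scale. Each gene is drawn by its brightest probe set, which for Cd44 is not the called one. Cd44, Hmox1 and Lpl, chosen for their small p at 24 h, stand at 1.18, 1.37 and 0.82 there. At P21 they stand at 2.69, 2.52 and 2.18. Bbc3 stands at 0.61 at 12 h and -0.81 at 24 h.

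At 24 h the effect of deafferentation differed between the ages for a small set of genes. The test of the P7 effect against the P21 effect called 22 probe sets (0.144%), 2 higher and 20 lower at P7; these 12 arrays share none between the ages. With the replicate number as a block it called 50, 10 higher and 40 lower. The 2 higher were Fos and Nr4a1. The 20 lower stand for 17 genes, whose P21 differences were all above 0, and whose P7 differences ranged from -0.52 to 0.82.

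Tgm1, a transglutaminase that crosslinks proteins, gave the smallest p. It read 3.11, 3.01 and 3.03 in the P7 controls and 2.83, 3.36 and 2.98 on the P7 deafferented side, against 3.10, 2.95 and 3.06 and then 6.00, 6.58 and 6.33 at P21. The P7 values overlapped near the bottom of the scale, with a difference of 0.01 ± 0.21, and the P21 difference was 3.27. The ages differed by -3.26 ± 0.29 (adjusted p = 1.41e-08). All values outside the P21 deafferented group were under 5, the limit used to keep probe sets, so Tgm1 was above the limit at 24 h through that group alone and the size of its difference rests on dim values. Lalba, named for the milk protein alpha-lactalbumin, went from 2.35 to 2.48 in P21 controls to 6.42 to 6.53 on the deafferented side, while its P7 values lay between 1.58 and 2.65. Its difference between the ages was -3.69 (adjusted p = 1.96e-06), and the same limit applies: only the P21 deafferented arrays exceeded 5. Tm4sf1, a membrane protein of endothelium, differed by -0.36 at P7 and 1.88 at P21 (adjusted p of the difference 0.000354).

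The remaining named genes were glial or injury genes. Lgals3, galectin 3 of activated microglia, differed by 0.39 at P7 and 3.06 at P21. Its P7 controls, at 6.69 to 7.79, were higher than the P21 controls, at 4.21 to 5.95. Socs3, the feedback inhibitor of interleukin 6 type signalling, differed by 0.08 and 2.68, Ptx3, pentraxin 3, by 0.43 and 2.71, and S100a10, an annexin partner of reactive astrocytes, by -0.17 and 1.10. Hspb1, the small heat shock protein Hsp27, differed by 0.21 and 1.78. Lpl differed by 0.82 and 2.18, with its groups apart at both ages. The Ptx3 groups at P7 all but touched, at 3.753 in the highest control and 3.755 in the lowest deafferented array. At 24 h Ptx3 exceeded 5 only in the P21 deafferented arrays, so the size of its difference rests on dim values. The adjusted p of the difference between the ages was 0.023 for Lgals3, 0.0225 for Socs3, 0.011 for Ptx3, 0.0179 for S100a10 and Hspb1, and 0.0469 for Lpl. Dimmer probe sets of Lpl (-0.63), Socs3 (-1.40) and S100a10 (-1.01) did not pass this limma test (adjusted p 0.868, 0.227 and 0.229). The dimmer probe set of Hspb1 did, at -2.41.

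Tgm1 and Lalba passed under all alternatives run for them. With only the 12 arrays of 24 h in the fit, the other 10 of the 12 named genes did not pass (adjusted p 0.0543 to 0.552). Of the 12 named genes, 8 did not pass without P21 deafferented replicate 2 (Atf3, Hspb1, Lgals3, Lpl, Nr4a1, Ptx3, S100a10 and Socs3, adjusted p 0.1 to 0.194). Likewise 8 did not pass without P7 control replicate 1 (Atf3, Fos, Hspb1, Lgals3, Lpl, Nr4a1, S100a10 and Socs3, adjusted p 0.0649 to 0.164). The other called genes, which the naming rule did not reach and which are listed after their values were seen, were Fcgr2b and Hbegf with 2 probe sets each, Clec7a, Smim3, Wwtr1, Prmt1 and 1 of the probe sets of Jun (-0.99). Fcgr2b, an inhibitory antibody receptor of microglia and macrophages, differed by 0.23 at P7 and 2.93 at P21 in the called probe set with the larger difference. At 24 h that probe set and the one of Clec7a exceeded 5 only in the P21 deafferented arrays, so their sizes also rest on dim values. Hbegf, a growth factor for astrocytes, differed by 0.13 and 1.98 in its brighter probe set.

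The starts of 2 of these genes are shown because each holds a motif of a stress pathway in the 250 bases before the gene start (RefSeq, GRCm38.p6). Capitals mark the motif. In Hspb1 they mark a pair of heat shock elements (GAANNTTC), which heat shock factors bind, beginning at positions -117 and -97 from the start, and in Atf3 an amino acid response element (CARE, TGATGNAA), which Atf4 and its partners bind, beginning at position -110 and lying on the other strand.
Hspb1, chr5:135887669-135887918, plus strand: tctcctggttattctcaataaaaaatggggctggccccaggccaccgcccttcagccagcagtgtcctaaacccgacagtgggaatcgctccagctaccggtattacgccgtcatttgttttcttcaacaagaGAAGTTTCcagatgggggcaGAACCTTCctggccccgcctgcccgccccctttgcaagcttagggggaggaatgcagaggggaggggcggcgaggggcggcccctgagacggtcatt
Atf3, chr1:191183334-191183583, minus strand: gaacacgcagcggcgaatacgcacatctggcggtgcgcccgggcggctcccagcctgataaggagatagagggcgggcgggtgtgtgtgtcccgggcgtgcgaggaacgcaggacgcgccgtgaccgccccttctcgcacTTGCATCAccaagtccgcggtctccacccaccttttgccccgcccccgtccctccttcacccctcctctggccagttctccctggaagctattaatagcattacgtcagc

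Of the 20 genes called in either test, 16 had a promoter in the table, taken as 300 bases around the start. Both strands were searched. The heat shock element was in 2 of the 16 (Hspb1 and Jun) and in 7.95% of all 27025 promoters, the CARE in 1 (Atf3) and in 4.06%. The interferon-stimulated response element was in 2 (Tgm1 and Tm4sf1) and in 3.49%, and the antioxidant response element (TGACNNNGC) in 1 (Lalba) and in 12.5%. The AP-1 site (TGANTCA, in 7.93% of promoters), the CRE (TGACGTCA, 1.88%) and the EGR site (GCGTGGGCG, 0.625%) were in 0 of the 16 windows. A match is a run of letters, not a measured binding site.

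The genes called at P21 were also read as a group in the P7 arrays, which they were not chosen on. The 97 probe sets called higher at P21 24 h had a median difference of 1.19 there and 0.21 at P7 24 h. At P7, 76 of them (78.3%) had a difference above 0, against 44.4% of all probe sets, and 21 (21.6%) were higher at an unadjusted p under 0.05, against 5.29%. Their P7 differences ranged from -0.52 to 1.82. Since the probe sets were chosen for passing at P21, smaller values at P7 follow in part from that choice. The P7 median was 0.01 at 6 h, 0.10 at 12 h and 0.12 at 48 h, and at 24 h it was 0.09 without deafferented replicate 2. The 27 probe sets called lower at P21 had a median of -0.95 there and -0.10 at P7, with 18 below 0 and 2 lower at an unadjusted p under 0.05. The P21 arrays differed in choroid plexus RNA. Ttr read 13.85, 14.38 and 14.72 in the P21 controls and 14.43, 9.22 and 8.90 on the deafferented side. Its 2 dimmer probe sets were called lower at P21 24 h (-4.12 and -3.60). The meninges and choroid plexus list had a P21 median of -0.76. The part of plexus RNA in the P21 differences, and in those between the ages, was not tested.

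**Figure D5:**
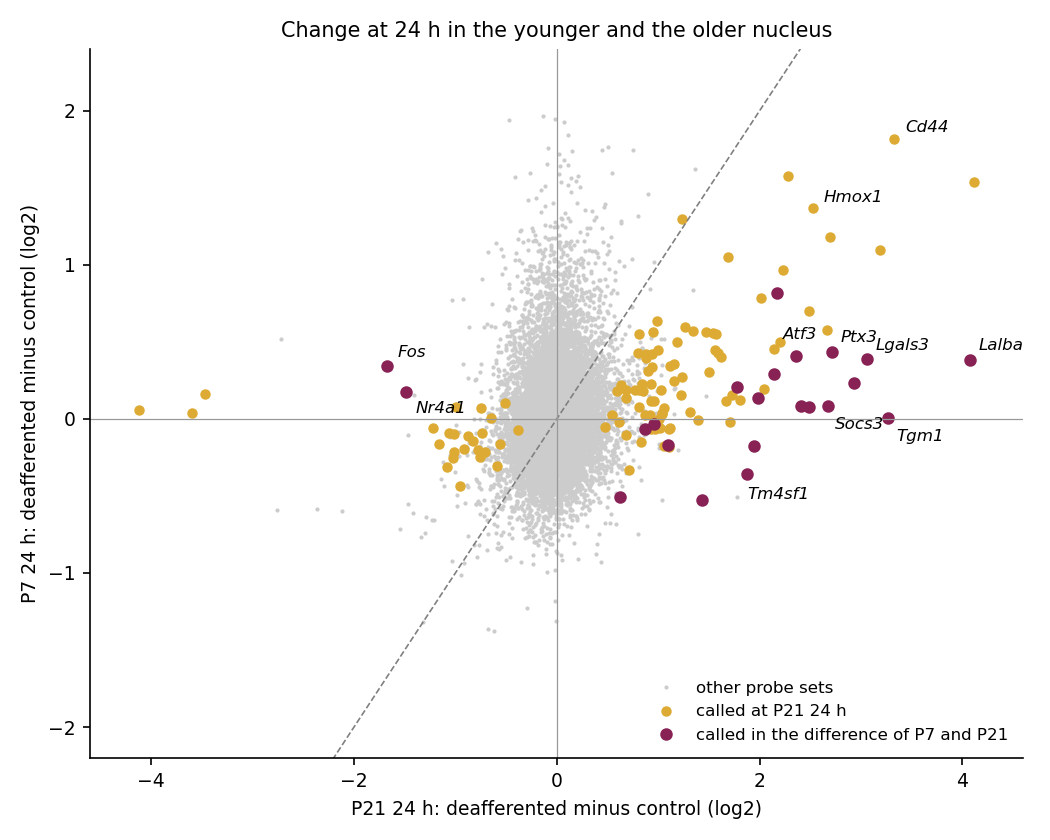
Log2 difference between the deafferented and control side at 24 h for 15323 probe sets, P21 on the horizontal and P7 on the vertical axis, whose scales differ; the dashed line marks equal differences. Probe sets called at P21 are in yellow and the 22 called in the difference between the ages in purple, with Fos and Nr4a1 at the left and Tgm1 and Lalba at the right near a P7 difference of 0.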

How the data were processed

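Total RNA of dissected cochlear nuclei was hybridised to Affymetrix arrays. The authors deposited log2 values, which per the submitters' processing notes come from GCRMA, a method that corrects background, normalises between arrays and summarises probes; no version of it was given. Groups were taken from the sample titles. Symbols came from the platform annotation: 20380 probe sets had 1 symbol, 691 had several and 1555 were unnamed here.

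From these values, probe sets above 5 in at least 2 of 44 arrays were kept (15323). limma 3.58.1 in R 4.3.3 fitted 1 mean per group over 16 groups (28 residual and a median of 5.27 prior degrees of freedom), with a trend in the variance, and p-values were adjusted by Benjamini-Hochberg within each comparison. The number of arrays, 3 a side, limits the precision. Tables were handled in Python 3.11.15. The fit was tested on simulated data.

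Named genes were, per comparison, the called genes with the largest changes, the 10 with the smallest p in each direction where under 5 were called, called members of lists, and 33 genes followed whatever their values, of which 26 were measured. Other list members named in the text were chosen after their values were seen. The members and the 44 lists were chosen with earlier results of these data known, so no list is independent evidence. Lists are described by counts and medians, without a set test. Every list count at P7 24 h stands beside 2.19% of all genes higher and 6.07% lower at an unadjusted p under 0.05. Alternatives covered the filter, normalisation, variance trend, arrays in the fit, replicate block, array weights, threshold and each array left out.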

Additional observations from a re-analysis of the deposited data

Results flagged for a closer look

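The test of the P7 effect minus the P21 effect (limma, adjusted over 15323 probe sets) called 22 probe sets. The 12 genes given here are those that the naming rule reached. In them the effect of deafferentation at 24 h differed between P7 and P21. It was higher at P7 for Fos (2.02) and Nr4a1 (1.67). It was lower at P7 for Lalba (-3.69), Tgm1 (-3.26), Lgals3 (-2.67), Socs3 (-2.59), Ptx3 (-2.28), Tm4sf1 (-2.24), Atf3 (-1.95), Hspb1 (-1.57), Lpl (-1.36) and S100a10 (-1.27). Dimmer probe sets of Socs3, Lpl and S100a10 did not pass, and that of Hspb1 did. At 24 h Lalba, Tgm1 and Ptx3 exceeded 5 only in the P21 deafferented arrays, so the sizes of their differences rest on dim values. With only the 12 arrays of 24 h in the fit, 10 of the 12 genes did not pass.

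Among the 10 genes lower at P7, the P21 effect was above 0 in each. The P7 effect was below 0 only for Tm4sf1 (-0.36) and S100a10 (-0.17), and neither was called at P7.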

How the results depend on the processing

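Counts of called probe sets moved with the choice of arrays more than with normalisation. For P7 24 h, against 1 called, limma called 40 without a filter (35 higher, 5 lower), 3 without a variance trend, 35 with array weights (29 and 6), and 0 with its own 6 arrays (693 at an unadjusted p under 0.05). The next counts come from alternatives chosen after seeing the data: 54 were called (37 and 17) without the replicate 3 arrays of 12 and 48 h, and 0 with only the 12 arrays of 24 h (1346 unadjusted). Leaving out each array gave 0 to 278. For the difference from P21, against 22, there were 9 at an adjusted p under 0.01, 6 with its own 12 arrays, 60 with array weights (11 and 49), 36 without those replicate 3 arrays (4 and 32), and 10 to 35 leaving out each array. Against 12 h the range was 0 to 7, with 7 without 12 h control replicate 2 and 2 without 24 h deafferented replicate 1. Against 48 h it was 0 to 82: 6 without control replicate 1 and 3 without deafferented replicate 2 of 24 h, 1 without control replicate 2 and 2 without deafferented replicate 1 of 48 h. The causes were not tested.

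Replicate numbers were not taken to pair the P7 24 h arrays, by a limit of 0.1 on the lowest correlation of same-numbered deviations. These correlated between -0.00178 and 0.417, and 1 of 3 controls correlated best with its own number. That rule rests on 3 correlations, so it cannot show that the pools were unpaired. The main fit used no pairing at any time. At P21 24 h, P7 12 h and P7 48 h the lowest of these correlations were 0.158, 0.353 and 0.23. These exceeded the pairing limit of 0.1, so the numbers were taken to pair those arrays. Of 3 controls, 3, 3 and 2 correlated best with their own number. The highest correlation at P21 24 h, 0.387, was below that at P7 24 h. With a replicate block the counts were 165 (115 higher, 50 lower) at P7 24 h, 50 (10 and 40) for the difference from P21, 4 against 12 h and 90 (62 and 28) against 48 h. Of 1410 values of named genes at P7 24 h, 1268 kept their side of the threshold or moved within the spread, 84 newly passed, 3 no longer passed, 55 moved and 0 reversed a called direction. The 3 that no longer passed were the called Cd44 probe set. Of 45 list medians, 37 moved by less than 0.1 when all probe sets of a gene were averaged.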

Other observations

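Genes of receptors and channels showed no call at P7 24 h in limma, and the values nearest to one went in both directions. Among 8 ionotropic glutamate receptor genes the median was 0.05, and -0.09 without control replicate 1; 2 were higher and 1 lower at an unadjusted p under 0.05. Gria3, an AMPA receptor subunit, read 5.11, 5.29 and 4.75 in the controls and 5.95, 5.68 and 5.78 after deafferentation, apart, with a difference of 0.75. Grik2 read 4.84, 4.62 and 4.10 against 5.26, 5.25 and 4.95, also apart. Gria1, another AMPA subunit, read 7.45, 8.01 and 7.92 against 7.05, 7.61 and 7.11, a difference of -0.54 with overlap. Its dimmer probe set differed by -0.62, with its groups apart. Gria2, which sets calcium permeability, differed by 0.07. In a list of metabotropic glutamate receptors and postsynaptic scaffold, no metabotropic receptor was among the 10 genes tested, and their median was 0.12. The median was 0.03 in 16 genes of glycine and GABA transmission, 0.08 in 19 of synaptic vesicles and 0.02 in 14 calcium buffers and pumps. Without control replicate 1 these medians were -0.06, -0.11, -0.20 and -0.17.

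Among 18 voltage-gated potassium and HCN channel genes the median was 0.09 (-0.01 without control replicate 1), with 3 higher and 1 lower at an unadjusted p under 0.05. Over all 8886 genes 2.19% were higher and 6.07% lower. Kcna2 read 6.63, 6.35 and 4.89 against 7.32, 6.15 and 7.04, and Kcnma1, a calcium-activated channel, 6.33, 6.82 and 4.63 against 6.65, 6.76 and 6.61. Both overlapped, and the low value in both was that of control replicate 3, as for Map2 and Syt1. Kcnk1, a leak channel, read 10.07, 10.37 and 10.08 against 9.69, 9.81 and 9.87, apart, a difference of -0.39, while its dimmer probe set differed by -0.04. Leak and inward rectifier channels had a median of -0.03 in 9 genes and sodium and calcium channels 0.11 in 16, and -0.15 and -0.13 without control replicate 1.

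Matrix and protease genes had a median of 0.10 in 24 genes, 19 of them above 0, with 5 higher and 1 lower at an unadjusted p under 0.05. Over all 8886 genes 3338 were above 0, 2.19% were higher and 6.07% lower. Cell cycle genes had a median of -0.03 in 30; Mcm4, of the DNA replication helicase, read 6.41, 6.66 and 6.75 against 7.09, 7.17 and 7.25, apart, with a difference of 0.56 (adjusted p = 0.231), while its dimmer probe set differed by -0.17 with overlap. Cholesterol and lipid synthesis genes had a median of -0.05 in 17, and -0.18 without control replicate 1. No hypothesis was tested on these values.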
